A study of Mus musculus with 8 samples.

Results

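The liver RNA of obese, diabetes-susceptible NZO mice and of lean, diabetes-resistant B6 mice was compared at 7 genes about which little is known in liver. They are Cib3, Wfdc21, Gm7969, 1500011B03Rik, 1110019D14Rik, 1700001C19Rik and 1700028B04Rik, out of 20134 genes that were measurable in at least 1 strain. The 7 genes were chosen because their signal differed, by sizes that range widely, between the same NZO and B6 arrays that are described here. The strain differences of these 7 genes are therefore given as a description without a test, while their neighbours in the genome and their relatives were tested.

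The mice were males of the strains NZO/HiBomDife and C57BL/6, 6 weeks of age, that received a diet with 45% fat. Liver RNA of 4 mice per strain was labelled with Cy3 and hybridised to 1-colour Agilent arrays with probes of 60 bases, 1 array per mouse, and the numbers behind the strain names below are those of the mice. No mouse on another diet and no other age was part of the comparison, so strain, obesity and the response to the diet cannot be told apart. The share of spots with measurable signal, well above background, ranged from 50.4% to 55.0% per array in NZO and from 53.1% to 60.1% in B6. No array held a saturated spot. The array of NZO 007 stood apart in markers of skeletal muscle, whose values are given with those of other cells, and without it the differences of the 9 probes were -4.92 for Cib3, -5.30 for Wfdc21, -5.86 and -5.61 for probes 1 and 2 of Gm7969, 4.24 and 1.41 for probes 1 and 2 of 1500011B03Rik, -4.29 for 1110019D14Rik, 1.14 for 1700001C19Rik and 1.07 for 1700028B04Rik. All levels are log2 values of the background-corrected signal relative to the 75th percentile of the array, so a difference of 1 is a doubling, and a level compares the same probe between arrays but not one gene with another. Sums over marker genes compare arrays too, and the brightest probe of a list need not be that of its most abundant RNA. In whole liver, a lower level can reflect fewer cells of a type or less RNA per cell, and these cannot be told apart.

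The group is mixed in kind, with 3 protein-coding genes, 3 long noncoding RNAs and 1 transcribed pseudogene. Cib3 encodes a small EF-hand protein of the calcium and integrin binding family, whose members bind calcium and dock onto the tails of membrane proteins, and Cib3 is best known from the sensory hair cells of the inner ear. Wfdc21 encodes a small secreted protein with the whey acidic protein domain that is shared by antiproteases and antimicrobial proteins, and its RNA is known to be induced by bacterial endotoxin. The names that end in Rik are those of cDNA clones and the name Gm7969 is that of a predicted gene model, and for these no role in liver is described here. Long noncoding RNAs and transcribed pseudogenes are copied into RNA without giving a known protein.

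The array carried 9 probes for the 7 genes, and all 9 passed the filter for signal in at least 1 strain. The 5 probes of Cib3, Wfdc21, Gm7969 and 1110019D14Rik had a lower signal in NZO, and the 4 probes of 1500011B03Rik, 1700001C19Rik and 1700028B04Rik had a higher signal in NZO. None of the 9 probes overlapped between the strains. Among all 27639 tested probes, 11.3% had every NZO array above every B6 array and 10.7% had every NZO array below every B6 array. As the genes were chosen by this contrast, nothing further is read from the count. By size of the difference, probe 1 of Gm7969 ranked 20 among these probes. Probe 2 of 1500011B03Rik ranked 1189, 1700001C19Rik 1895 and 1700028B04Rik 2088, so many other probes differed by more.

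**Figure D1:**
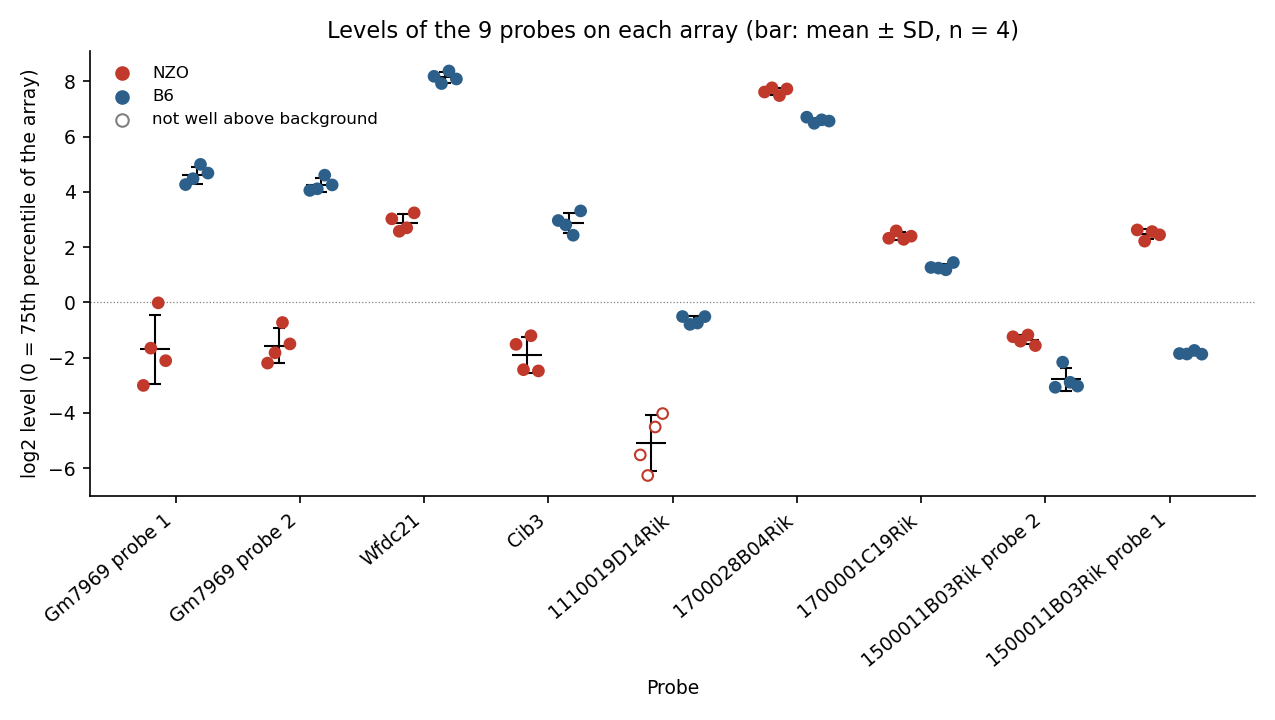
Log2 level of each of the 9 probes (y axis, 0 is the 75th percentile of the array) on the 4 NZO arrays (red) and the 4 B6 arrays (blue), with bars for mean ± SD and open circles where the probe was not well above background. The strains do not overlap at any probe, and 1110019D14Rik is the only one of the 9 that was at background in a whole strain, on all 4 NZO arrays.

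Cib3 was measured by 1 probe on chromosome 8 (mm9, chr8:74729463-74729522, minus strand). Its level was -1.52 in NZO 007, -2.44 in NZO 003, -1.21 in NZO 009 and -2.48 in NZO 011. In B6 it was 2.96 in mouse 011, 2.80 in mouse 010, 2.43 in mouse 015 and 3.31 in mouse 009. Every B6 array thus lay far above every NZO array, with a gap of 3.64 between the nearest arrays. The means were -1.91 ± 0.65 in NZO and 2.88 ± 0.37 in B6 (SD, n = 4 each), a difference of -4.79 or a 27.6-fold higher signal in B6. The probe was well above background on all 8 arrays, so the RNA was still detectable in NZO. With another background correction, normexp, the difference was -3.44.

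The other EF-hand proteins related to Cib3 did not show a shift of this size. Of 7 listed relatives, namely the other calcium and integrin binding proteins, the calcineurin-like EF-hand proteins and the regulatory subunits of calcineurin, 6 were measurable. A call required an adjusted p of at most 0.05 in limma with Benjamini-Hochberg adjustment over all genes and a log2 difference of at least 0.7. With this rule 893 genes (4.44% of all tested) were higher and 1010 genes (5.02%) lower in NZO, and the median difference over all genes was 0.03. The deposited table, which is not scaled between arrays, gave 443 higher and 1058 lower with a median of -0.15. Among the relatives 2 were called lower and 0 higher, with a median of -0.13. Chp1, a calcium-binding partner of sodium-proton exchangers, fell from 6.03 ± 0.16 in B6 to 5.20 ± 0.12 in NZO (SD, n = 4 each; difference -0.83, SE 0.11, adjusted p = 0.00164 in limma). All 3 probes of Chp1 were lower in NZO, by values between -0.72 and -0.83, although with the slide as a fixed block the call was lost (-0.61). Cib4, another calcium and integrin binding protein, had a level of -4.01 ± 0.43 in NZO and -3.17 ± 0.30 in B6 (difference -0.84, SE 0.23, adjusted p = 0.0482 in limma). However, it was well above background on only 1 of 4 NZO arrays, and the call was lost under most other ways of processing. The 4 relatives without a call differed by values between -0.16 and 0.23.

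Wfdc21 was measured by 1 probe that was printed on 10 spots of each array (mm9, chr11:83566028-83566087, plus strand), listed there under the older symbol 1100001G20Rik. The level was 3.02 in NZO 007, 2.57 in NZO 003, 2.70 in NZO 009 and 3.24 in NZO 011. In B6 the level was 8.18 in mouse 011, 7.92 in mouse 010, 8.38 in mouse 015 and 8.09 in mouse 009. The 2 strains formed tight and distant clusters, with a gap of 4.68 between the nearest arrays. Wfdc21 had a mean of 2.88 ± 0.30 in NZO and 8.14 ± 0.19 in B6 (SD, n = 4 each), so the difference was -5.26, a 38.2-fold higher signal in B6.

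Among the 7 genes, only Wfdc21 had replicate spots on each array. Between 8 and 10 spots per array were usable, and their SD within an array was between 0.03 and 0.10. Taken one at a time, the 9 spots with values in both strains gave differences between -5.32 and -5.23.

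**Figure D2:**
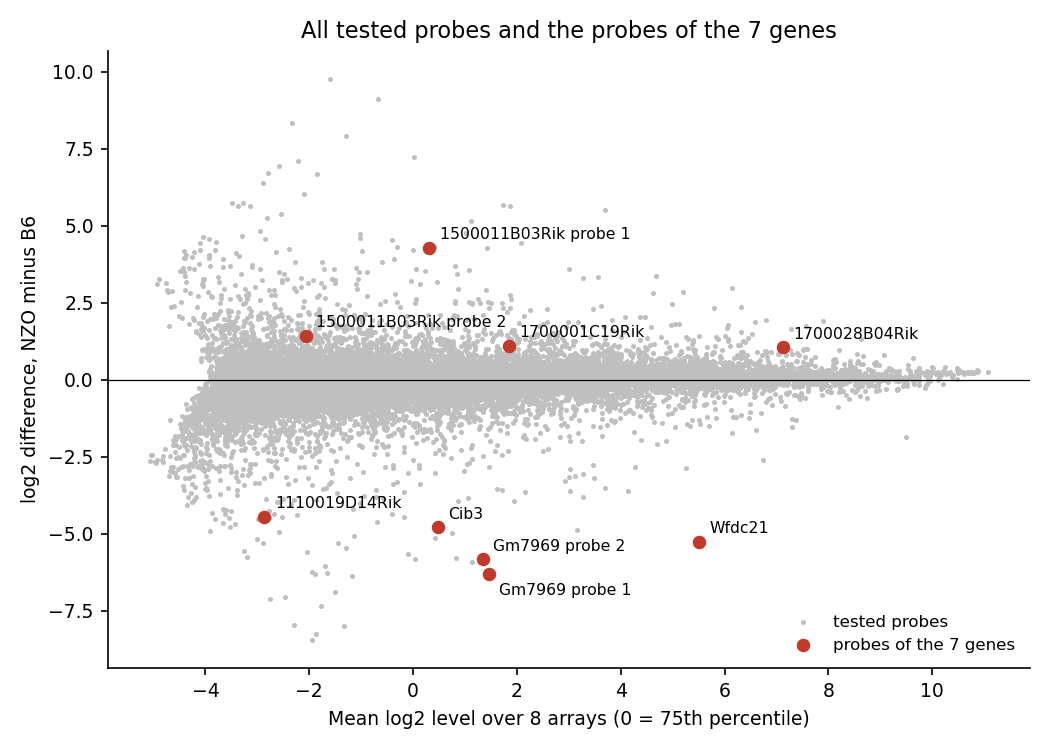
Difference between NZO and B6 (y axis, log2) against the mean log2 level over the 8 arrays (x axis) for all 27639 tested probes (grey) and the 9 probes of the 7 genes (red). Wfdc21 at -5.26 and Gm7969 at -6.30 lie below the main cloud, and 1700001C19Rik at 1.11 and 1700028B04Rik at 1.06 lie on its upper edge.

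Of 19 listed relatives of Wfdc21 with a whey acidic protein domain, 9 were measurable, with a median difference of -0.03. Of these 9, 1 was called higher and 0 lower, against 4.44% and 5.02% of all genes. The count of 0 lower is thus near the share of all genes, and nothing about the family is read from it. Without adjustment 4 of the 9 had a p of at most 0.05 at any size, against 28.2% of all genes, and the methods' t-test called 0 of them lower with or without adjustment. The called gene, Wfdc15b, went in the opposite direction, with levels of -0.48, -0.51, -0.61 and -0.15 in NZO 007, 003, 009 and 011, and of -2.99, -3.50, -2.75 and -3.54 in B6 011, 010, 015 and 009. The means of Wfdc15b were -0.44 ± 0.20 and -3.20 ± 0.39 (SD, n = 4 each), a difference of 2.76 (SE 0.20, adjusted p = 6.63e-05 in limma), which was 1.29 with normexp and 1.61 in the deposited table. Wfdc2, named after its values were seen, was not called with the brighter of its probes (0.62), but its other probe gave 1.06. The 8 relatives without a call, by the brightest probe, lay between -0.30 and 0.62, and this range includes the family members that neighbour Wfdc21 on chromosome 11.

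As Wfdc21 RNA is known to respond to endotoxin, genes of the acute-phase and inflammatory response were set beside it. Of 15 such genes 14 were measurable, and all 14 had a lower mean in NZO, with a median of -0.51 over the list. The call was passed by 4, all lower, against 5.02% of all genes called lower. At an unadjusted p of at most 0.05 in limma there were 6, against 28.2% of all genes. Lcn2, an iron-siderophore binding protein of the acute phase, had levels of 0.41, -0.43, -0.41 and -0.68 in NZO 007, 003, 009 and 011, and of 2.29, 1.13, 4.28 and 2.001 in B6 011, 010, 015 and 009. Lcn2 fell by 2.70 (SE 0.61, adjusted p = 0.0203 in limma) without overlap between the strains. The acute-phase plasma proteins Orm1 and Orm2 differed by -0.77 (SE 0.20, adjusted p = 0.039) and -0.71 (SE 0.19, adjusted p = 0.0458), and the cytokine gene Il1b by -1.23 (SE 0.33, adjusted p = 0.0408), each in limma.

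The calls of the inflammation genes depended on single arrays and on the test, as with the slide as a fixed block and with the methods' t-test after adjustment 0 of them were called. At the methods' own threshold, which is unadjusted, that test called 5 lower, namely Lcn2, Orm1, Orm2, Il1b and Saa3. It leaves the sizes as they are, and with the slide block they were -3.14 for Lcn2, -0.74 for Orm1, -0.81 for Orm2 and -1.60 for Il1b, while with normexp the difference of Il1b was -0.32 and not called. The SD of Lcn2 in B6 was 1.33 against 0.19 for Wfdc21, and mouse B6 015 had the highest level of both. Without NZO 003, NZO 009 or NZO 011 none of the inflammation genes was called, without NZO 007 or B6 015 1 of them was called, and without B6 009 or B6 011 2 were. Without NZO 003, NZO 009 or NZO 011 the difference of Lcn2 was -2.65, -2.66 or -2.57, and without B6 015 it was -2.08. Of 5 leukocyte markers, all measurable, 1 was called lower and 0 higher, with a median of -0.42. The methods' t-test called 0 of them after adjustment and 1, Itgax, lower at its unadjusted threshold. At an unadjusted p of at most 0.05 in limma there were 4, against the 28.2% of all genes, of which Ptprc (-0.52), Itgax (-2.04) and Cd68 (-0.42) were lower and Lyz2 (0.41) was higher in NZO. The called one, Itgax of dendritic cells and macrophages, had levels between -5.13 and -2.41 in NZO and between -1.94 and -1.18 in B6, and was well above background on 2 of 4 NZO arrays. The part of inflammation or of leukocytes in the Wfdc21 difference was not tested.

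**Figure D3:**
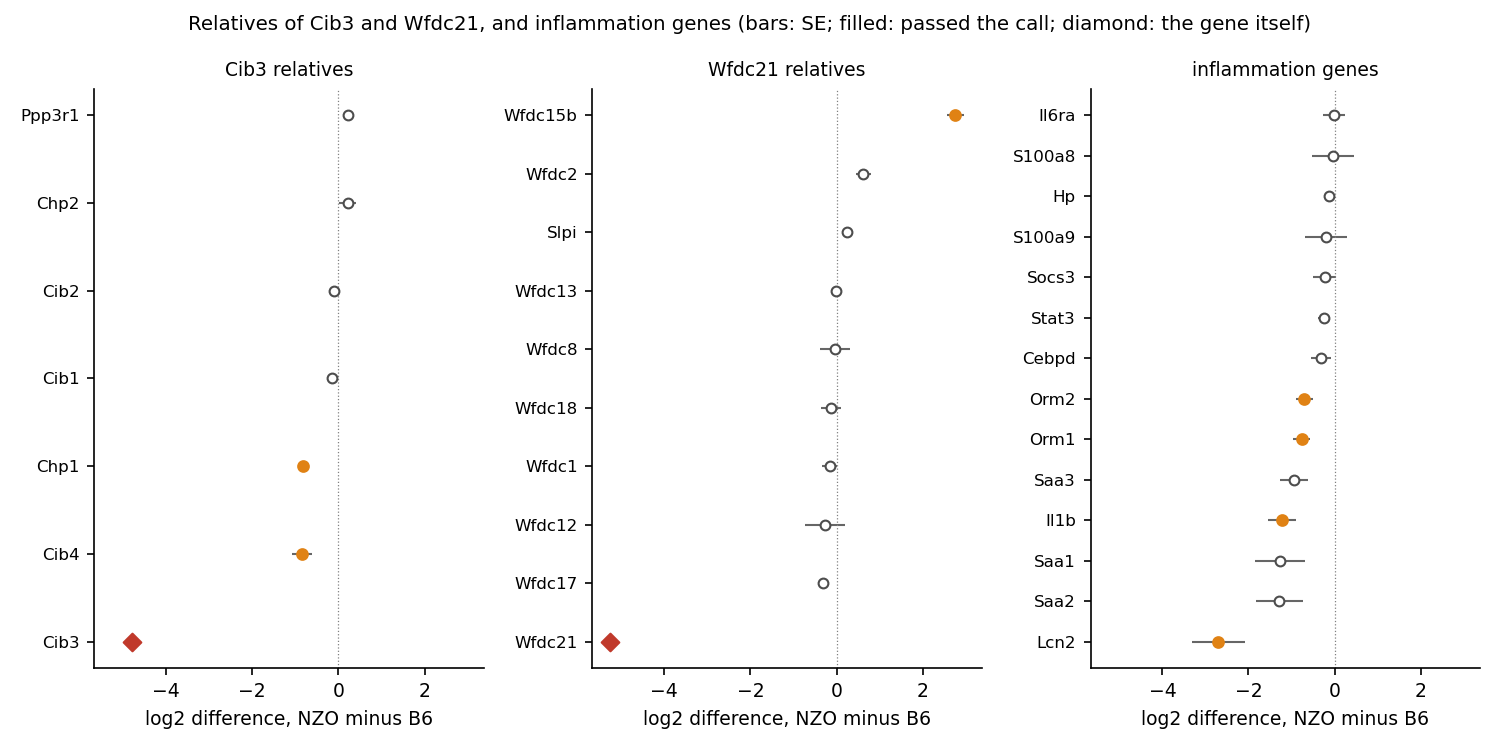
Strain difference (x axis, log2, NZO minus B6) of the measurable relatives of Cib3 and Wfdc21 and of inflammation genes, with SE bars and filled circles for genes that passed the call. The diamonds of Cib3 (-4.79) and Wfdc21 (-5.26) lie far from the circles of their relatives, and the inflammation genes lie between -2.70 and -0.02.

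Gm7969 is a long noncoding RNA of chromosome 13 that was measured by 2 overlapping probes. Their sequences are shown because they read almost the same stretch of RNA, so the second is a close to repeated measurement of the first. Both are on the plus strand of mm9, probe 1 at chr13:68054070-68054129 and probe 2 at chr13:68054078-68054137, and the capitals mark the bases at which they differ.
Gm7969 probe 1: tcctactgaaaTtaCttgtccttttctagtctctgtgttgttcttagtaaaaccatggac
Gm7969 probe 2: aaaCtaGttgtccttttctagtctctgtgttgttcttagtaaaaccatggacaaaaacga
Shifted by 8 bases, the probes share 52 positions and differ at 2 of them, T12C and C15G, counted from the 5′ end of probe 1 with the base of probe 1 first. The longest run without a difference is 45 bases.

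Probe 1 of Gm7969 had levels of -3.00, -1.66, -0.02 and -2.11 in NZO 007, 003, 009 and 011, and of 4.26, 4.48, 4.99 and 4.68 in B6 011, 010, 015 and 009. Probe 2 had levels of -2.20, -1.82, -0.73 and -1.50 in the same NZO mice and of 4.05, 4.11, 4.60 and 4.25 in the same B6 mice. With both probes NZO 009 was the highest NZO array, NZO 007 the lowest, and B6 015 the highest B6 array. The spread within NZO was wide at probe 1, where the SD was 1.25 against 0.31 in B6, and smaller at probe 2, where it was 0.62 against 0.25.

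The strain difference of Gm7969 was -6.30 with probe 1 (means -1.70 and 4.60) and -5.82 with probe 2 (means -1.56 and 4.26), or 78.8-fold and 56.4-fold higher in B6. Both probes gave measurable signal in every mouse. The 2 estimates differed by 0.48. With normexp correction the differences were -4.90 and -4.57.

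1500011B03Rik is a long noncoding RNA of chromosome 5 with 1 probe for each of 2 transcript variants. The sequences are shown because the probes target different stretches, with probe 1 for the second variant at mm9 chr5:115263126-115263185 and probe 2 for the first variant at chr5:115258275-115258334, both on the minus strand.
1500011B03Rik probe 1: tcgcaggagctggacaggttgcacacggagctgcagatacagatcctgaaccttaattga
1500011B03Rik probe 2: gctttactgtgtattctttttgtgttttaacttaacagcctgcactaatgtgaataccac
The starts lie 4851 bases apart, and the longest run that the probes share is 5 bases. Probe 1 holds 51.7% G or C and probe 2 holds 35.0%, against a median of 43.3% over all probes of the array.

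Probe 1 of 1500011B03Rik had levels of 2.62, 2.22, 2.56 and 2.45 in NZO 007, 003, 009 and 011, and of -1.85, -1.87, -1.74 and -1.87 in B6 011, 010, 015 and 009. Probe 2 had levels of -1.24, -1.40, -1.18 and -1.56 in the same NZO mice and of -3.07, -2.16, -2.89 and -3.03 in the same B6 mice. Both probes were higher on every NZO array than on every B6 array. The size differed, as probe 1 gave 4.30 (means 2.46 ± 0.18 and -1.83 ± 0.06, SD, n = 4 each), a 19.6-fold higher signal in NZO, and probe 2 gave 1.44 (means -1.35 ± 0.17 and -2.79 ± 0.42), a 2.72-fold higher signal. The gap between the 2 estimates was 2.85. With normexp correction probe 1 gave 3.17 and probe 2 gave 0.62. Within a mouse, the level of probe 2 minus that of probe 1 was -3.81 ± 0.17 in NZO and -0.96 ± 0.44 in B6 (SD, n = 4 each). These values restate the gap of 2.85, and neither compares the amounts of the 2 variants, as levels of different probes are not comparable.

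1110019D14Rik is a long noncoding RNA of chromosome 6. Its single probe is shown because it was the only one of the 9 without measurable signal in a strain (mm9, chr6:13846198-13846257, plus strand).
1110019D14Rik: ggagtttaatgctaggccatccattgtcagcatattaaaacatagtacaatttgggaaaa
In B6 the level was -0.51 in mouse 011, -0.80 in mouse 010, -0.75 in mouse 015 and -0.51 in mouse 009, and the probe was well above background on all 4 arrays. On all 4 NZO arrays it was not well above background, with measured values between -6.26 and -4.02. The measured means were -5.08 in NZO and -0.64 in B6, but the NZO mean only sets an upper limit to the level. With each NZO array set to the lowest signal found above background on it, or to the value of the probe if higher, the signal was at least 11.3-fold higher in B6. This bound depends on the background correction, as the difference was -1.27 with normexp and -2.16 in the deposited table, both smaller than the bound, against a measured -4.44. The probe holds 35.0% G or C.

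1700001C19Rik is a protein-coding gene of chromosome 17 with 1 probe (mm9, chr17:47550341-47550400, minus strand). The levels were 2.32, 2.59, 2.28 and 2.40 in NZO 007, 003, 009 and 011, and 1.26, 1.24, 1.18 and 1.44 in B6 011, 010, 015 and 009. The strains did not overlap, although the nearest arrays were only 0.84 apart. The means were 2.40 ± 0.14 and 1.28 ± 0.11 (SD, n = 4 each), a difference of 1.11 or 2.17-fold. The pooled SD of 0.13 was below that of most probes, as 16.1% of the tested probes had a smaller one.

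1700028B04Rik is a transcribed pseudogene of chromosome 7 that the array describes as similar to a subunit of respiratory complex I, and its probe is shown for that reason (mm9, chr7:29282500-29282559, plus strand).
1700028B04Rik: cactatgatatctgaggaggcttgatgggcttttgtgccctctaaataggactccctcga
The levels were 7.61, 7.77, 7.49 and 7.73 in NZO 007, 003, 009 and 011, and 6.70, 6.48, 6.61 and 6.56 in B6 011, 010, 015 and 009. The arrays of the strains were separate with a gap of 0.78. The means were 7.65 ± 0.13 and 6.59 ± 0.09 (SD, n = 4 each), a difference of 1.06 or 2.08-fold. The subunit named in the description is known as Ndufb8, and its own probe was looked up after the description had been read. Ndufb8 had a level of 7.41 ± 0.19 in NZO and 6.82 ± 0.08 in B6 (SD, n = 4 each; difference 0.59, SE 0.12, adjusted p = 0.0106 in limma), which is the same direction but short of the size needed for a call. The 2 probes share no run longer than 5 bases, but this does not compare the probe of the pseudogene with the whole RNA of Ndufb8. It therefore cannot tell whether RNA of Ndufb8 binds to the probe of the pseudogene, which was not tested.

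The probes of the 7 genes were also compared with the probes of other genes on the array. In the best alignment without gaps, the most similar probe of another gene had between 30 and 34 of 60 bases identical. The longest run shared with that most similar probe was 13 bases, for Wfdc21. This compares the array with itself, so it cannot tell which RNAs bind to a probe. Sequence differences between the strains within a probe were not examined here.

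The next question was whether the genes around the 7 differ between the strains too. The gene table of GRCm38.p6 gave 70 neighbours, 5 on either side of each gene, of which 39 had a probe and 32 were measurable. The call was passed by 2 neighbours in each direction, that is 4 of 32, against 9.45% of all genes in either direction. The median difference of the neighbours was -0.06. The 28 neighbours without a call lay between -0.84 and 0.65.

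AA414992, the gene that follows Gm7969 on chromosome 13, was the neighbour with the largest difference. It is an RNA of unclassified kind whose gene lies 226.8 kb beyond the end of Gm7969 in GRCm38.p6. On all 4 NZO arrays it was not well above background, with values between -6.49 and -6.15. In B6 its level was 1.26 in mouse 011, 1.69 in mouse 010, 2.18 in mouse 015 and 1.58 in mouse 009. The signal of AA414992 was at least 56.4-fold higher in B6 (measured means -6.27 and 1.68, difference -7.95, adjusted p = 3.57e-07 in limma). It passed the filter only through B6, so this p rests on background values in NZO. This bound depends on the background correction, as the difference of AA414992 was -3.11 with normexp and -4.35 in the deposited table, both smaller than the bound. Gm7969 and AA414992 were both highest in mouse 015 and lowest in mouse 011 among the B6 arrays. Mouse 015 was the highest B6 array for Wfdc21, Lcn2, Orm1 and Orm2 as well, so this is not particular to the pair. Whether their levels vary together was not tested. Their probes share no run longer than 6 bases, which compares only the probes and not the whole RNAs. The 3 other measurable neighbours of Gm7969, all on its other side, lay between -0.14 and 0.31.

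Guca1a, whose gene overlaps 1700001C19Rik at 1 end in GRCm38.p6, was higher in NZO by more than 1700001C19Rik itself. Guca1a encodes an EF-hand calcium sensor that controls guanylate cyclase in photoreceptors. Its levels were 0.65, 0.70, 0.60 and 0.35 in NZO 007, 003, 009 and 011, and -2.49, -2.81, -2.91 and -2.64 in B6 011, 010, 015 and 009. The difference was 3.29 (SE 0.13, adjusted p = 2.74e-06 in limma), with the probe above background on all 8 arrays, and was 1.67 with normexp and 2.03 in the deposited table. In mm9 the probe of Guca1a lies 17.8 kb from that of 1700001C19Rik and on the same strand, so RNA that runs through both genes cannot be told apart from separate RNAs. The 6 other measurable neighbours lay between -0.46 and 0.18.

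Git2, which encodes a GTPase-activating protein for Arf proteins and lies 33.6 kb from 1500011B03Rik, was higher in NZO too. Its levels were between -0.37 and 0.20 in NZO and between -1.90 and -1.21 in B6, a difference of 1.47 (SE 0.18, adjusted p = 0.000906 in limma). The 3 other measurable neighbours of 1500011B03Rik lay between -0.12 and 0.65, and the 2 genes directly beside it were among them. A probe without a gene name, 14.98 kb from probe 1 of 1500011B03Rik in mm9 (A_55_P2125868), was singled out after its value was seen. It was above background on all 8 arrays and higher in NZO by 1.26 (adjusted p over all probes = 0.00141 in limma). Tpm4, which encodes a tropomyosin of the actin cytoskeleton, lies 51.2 kb from Cib3 and was lower in NZO. Its levels were between 1.06 and 1.40 in NZO and between 2.05 and 2.33 in B6, a difference of -0.96 (SE 0.11, adjusted p = 0.000647 in limma) and thus far smaller than that of Cib3. The 3 other measurable neighbours of Cib3 lay between -0.65 and 0.21. The lowest, Fam32a directly beside Cib3, was short of the size for a call (-0.65, adjusted p = 0.00157 in limma), and its other probe gave -0.36. Of the 4 neighbours of Cib3, 3 had an unadjusted p of at most 0.05 in limma, against 28.2% of all genes. The numbers were 2 of 4 around 1500011B03Rik, 2 of 7 around 1700001C19Rik and 1 of 4 around Gm7969. Over the neighbours of all 7 genes it was 10 of 32, near the share of all genes, so nothing is read from the count at Cib3. With the slide as a fixed block, Git2 (1.001) and Tpm4 (-0.82) were no longer called, and with normexp Git2 differed by 0.92.

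Around Wfdc21, 1110019D14Rik and 1700028B04Rik 0 of the 4, 3 and 6 measurable neighbours were called by limma, and the methods' t-test called 0 as well after adjustment and 0, 0 and 1 (Nccrp1, -0.84) at its own unadjusted threshold. At an unadjusted p of at most 0.05 in limma their numbers were 1, 0 and 1. The gene that lies 51 bases from 1110019D14Rik in GRCm38.p6, 2610001J05Rik, was singled out after its value was seen. It had a level of 1.73 in NZO and 1.90 in B6 (difference -0.17, SE 0.11), whereas the signal of 1110019D14Rik was at background in NZO. A probe without a gene name, 25.6 kb from that of 1110019D14Rik in mm9 (A_30_P01020717), was above background on all 4 arrays of each strain. It differed by -0.18 (adjusted p over all probes = 0.82 in limma). The other nearby probes of the same unnamed interval were above background on at most 2 arrays of a strain.

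**Figure D4:**
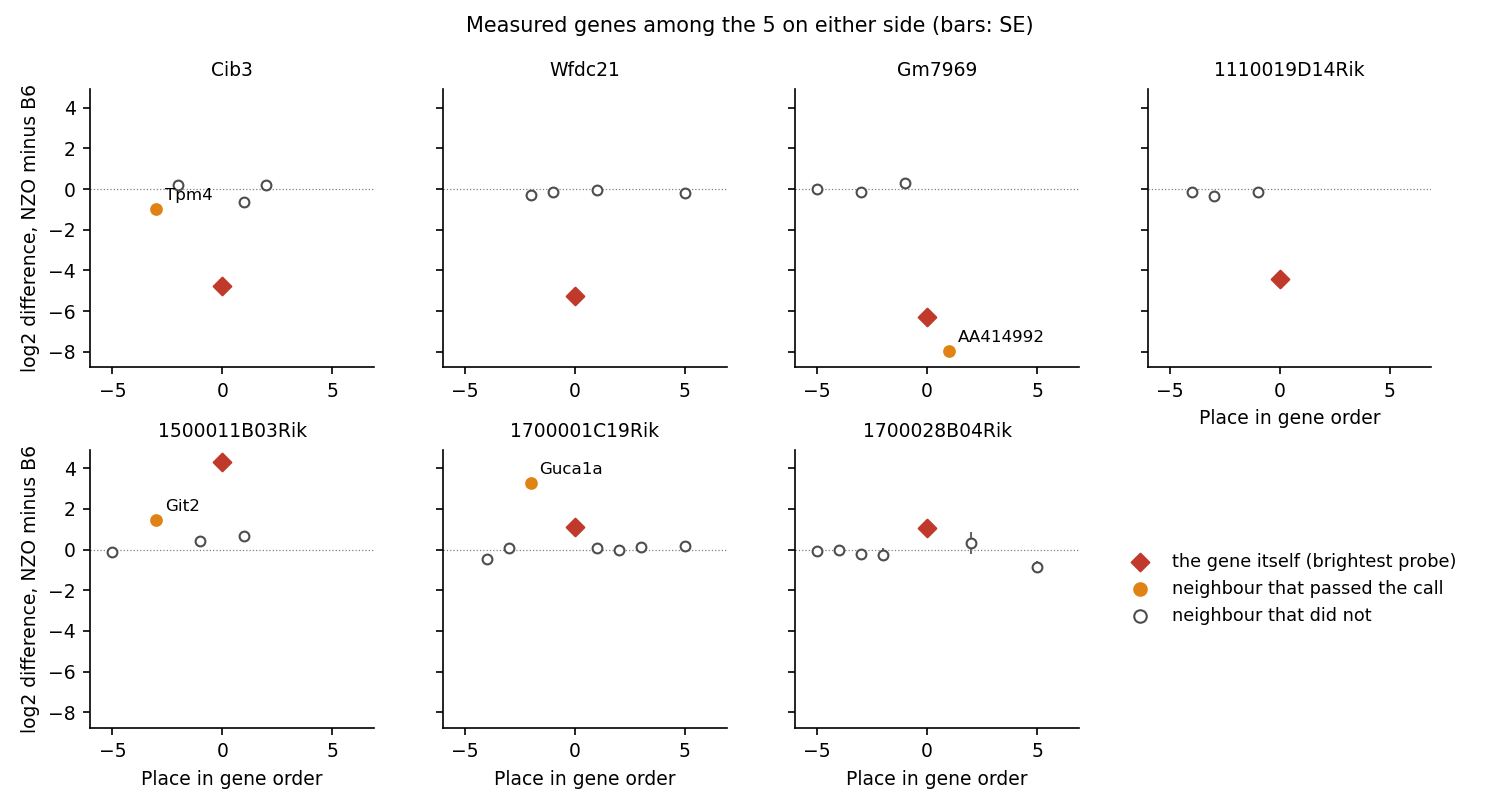
Strain difference (y axis, log2, NZO minus B6) of the measurable genes among the 5 on either side of each gene (x axis, place in the gene order, 0 is the gene itself), with SE bars. AA414992 beside Gm7969, Guca1a and Git2 share the direction of their gene and stand off the zero line, Tpm4 lies slightly below it at -0.96, and the 28 open circles lie between -0.84 and 0.65.

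The array slides and the scan days were unevenly shared between the strains, so the differences were also read within them. The only slide that held both strains carried NZO 003, B6 010 and B6 015. On that slide Cib3 differed by -5.05, Wfdc21 by -5.57, Gm7969 by -6.39 with probe 1 and by -6.18 with probe 2, and 1500011B03Rik by 4.02 with probe 1 and by 1.13 with probe 2. For 1700001C19Rik the value was 1.38 and for 1700028B04Rik it was 1.22. As the strains did not overlap at these probes, the sign within a batch was fixed and only the sizes are read. The difference of Wfdc21 was -5.31 on the first day (3 NZO, 2 B6) and -5.11 on the second (1 NZO, 2 B6), and that of Cib3 was -4.66 on both. Gm7969 varied more between the days, as it differed by -5.997 and -7.48 with probe 1 and by -5.71 and -6.35 with probe 2. For 1500011B03Rik the values were 4.21 and 4.49 with probe 1 and 1.15 and 1.81 with probe 2, for 1110019D14Rik -4.16 and -5.01, for 1700001C19Rik 1.21 and 0.97, and for 1700028B04Rik 1.11 and 0.98.

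Markers of other cells were measured in the same arrays, and those called are named after their values were seen. All 5 hepatocyte markers were measurable, 0 were called by limma and their median was 0.00, with 0 at an unadjusted p of at most 0.05 and 0 called by the methods' t-test. Of 4 red blood cell markers 2, Hba-a1 and Alas2, were called higher and 0 lower (median 0.85), and 3 had an unadjusted p of at most 0.05 (28.2% of all genes did). The methods' t-test called 1 of them higher after adjustment and 3 at its unadjusted threshold. The sum of the 4 ranged from 292.9 to 469.5 in NZO and from 155.4 to 208 in B6, in multiples of the 75th percentile, with the brightest probe that of Hba-a1. Of 4 bile duct markers 3 were measurable, and Sox9 (difference -1.47, SE 0.28, adjusted p = 0.00878 in limma) was the 1 called lower. All 3 were lower in mean with an unadjusted p of at most 0.05 (Krt19 -0.65, Krt7 -1.0001, Sox9 -1.47), with a sum of the 4 between 0.472 and 0.768 in NZO and between 1.14 and 1.53 in B6 and the brightest probe that of Krt19. Krt7 was well above background on only 2 of 4 NZO arrays. Adipocyte markers (3 of 6 measurable) and exocrine pancreas markers (2 of 6) had 0 calls by limma and by the methods' t-test and 1 and 0 genes at an unadjusted p of at most 0.05, and Adipoq, Plin1, Lep, Cela3b, Pnlip, Cpa1 and Prss2 were not well above background on any array.

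Skeletal muscle markers varied widely between the arrays of a strain. Their sum was 16.4 in NZO 007, 0.186 in NZO 003, 0.215 in NZO 009 and 0.386 in NZO 011, and 0.987 in B6 011, 5.49 in B6 010, 1.39 in B6 015 and 0.355 in B6 009, in multiples of the 75th percentile. Myh4, a fast myosin heavy chain and the gene of the brightest probe of the 4, had a level of 2.86 in NZO 007 and between -4.77 and -2.81 on the other NZO arrays. With SDs of Myh4 of 3.47 in NZO and 1.69 in B6, 0 of the 3 measurable markers were called by limma or by the methods' t-test and 0 had an unadjusted p of at most 0.05.

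Because 1700001C19Rik and 1700028B04Rik are named after clones of testis libraries, markers of sperm and testis were included. Of the 4, 3 were measurable and 1 was called, Prm1, a protamine that packs sperm DNA. Prm1 was above background on all 4 NZO arrays and on none of the B6 arrays, and was at least 5.41-fold higher in NZO (measured means -1.81 and -4.55, adjusted p = 0.000862 in limma, which rests on background values in B6). The difference of Prm1 was 0.72 with normexp and 0.998 with the deposited values, both smaller than this bound. The sum of the 4 markers was between 0.599 and 1.21 in NZO and between 0.608 and 0.885 in B6, the brightest probe was that of Prm2 and Tnp2 was at background on all 8 arrays. Whether any of these cell types has a part in the differences of the 7 genes was not tested.

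Genes with a similar pattern were listed for each of the 7, by the Pearson correlation with its brightest probe over the 8 arrays, among 20128 other genes. As the 8 arrays fall into 2 strains, such a correlation mainly reflects the strain difference itself, and between 229 and 471 genes reached a correlation of 0.95 with a given member. The 3 closest were Gm4055, Cyp2c54 and B3gnt3 for Cib3, and Tagap, AA414992 and Steap3 for Wfdc21. For Gm7969 they were Pak1, an intergenic RNA without a name and Lrit2, for 1500011B03Rik LOC630751, Abca3 and Nuggc, and for 1110019D14Rik Tmem245, C230037E05Rik and another unnamed intergenic RNA. They were Chaf1a, Isoc2b and Smim10l1 for 1700001C19Rik, and Zfp414, Hspe1 and Gm3134 for 1700028B04Rik, and all 21 correlations lay between 0.992 and 0.999.

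After the mean of each strain was subtracted, the lists changed. The closest genes were then Plk1, Rbm10 and Usp11 for Cib3, Fam107a, a transcript without a symbol and Dop1a for Wfdc21, and Myo7a, Wt1 and Cog3 for Gm7969. They were Smoc2, an unnamed intergenic RNA and 5430431A17Rik for 1500011B03Rik, and Pou5f2, Gm17821 and C230094B09Rik for 1110019D14Rik. For 1700001C19Rik they were Kif17, Gpalpp1 and Anapc7, and for 1700028B04Rik Atp5md, a probe without a gene and Irgm2. These 21 correlations lay between 0.951 and 0.993, over 8 arrays that share the same scans and slides. Between 3 and 74 genes reached a correlation of 0.95 with a given member. The highest of 20128 correlations over so few arrays can be this large without any relation. No relation of the listed genes to the members was tested. The NZO values of 1110019D14Rik were at background, so its list rests in part on background signal.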

How the data were processed

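Arrays of 4 NZO and 4 B6 livers were analysed. The deposited intensity values came from Agilent Feature Extraction, version 11.0.1.1 in the file headers and 9.1 in the submitters' processing notes. The deposited table named as normalized equalled the raw median intensity at 59305 of 59305 spots on each array (tolerance 0.01). The processed signal was used instead, which the authors' software had corrected for background without scaling between arrays. Control and outlier spots were left out, log2 values were taken relative to the 75th percentile of the array, and spots of a probe were averaged. Probes well above background on all 4 arrays of a strain were kept (27639 of 55681), and the brightest probe stood for a gene. The RefSeq gene table named probes by accession (27656), another accession (85), symbol (3347) or synonym (312), and 24281 kept the name of the file. The strains were compared without a block with limma 3.58.1 (R 4.3.3 and its data.table package, version 1.17.8), in a script tested on simulated data. Python 3.11.15, pandas 2.3.3, numpy 2.4.6 and matplotlib 3.10.9 made tables and plots.

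The members and all gene lists were chosen with earlier results of these data known. Named were the 7 genes, every called neighbour, relative and inflammation gene, and the 3 genes most similar to each member. P-values measure only the spread between these samples. Sequences are those of the array files. Alternatives were normexp correction (offset 50), quantile normalization, the deposited table, no filter on dim probes, outlier spots kept, blocks by slide, scan day or mouse number, the methods' t-test with adjusted p, the mean over probes, the probe with the smallest p, unadjusted p, 3 or 10 neighbours on either side, each array left out and, chosen after seeing the data, single spots of Wfdc21 and the methods' t-test without adjustment.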

Additional observations from a re-analysis of the deposited data

Results flagged for a closer look

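Among the 40 sets of 4 arrays that were examined, for the 9 probes and the 11 named neighbours, relatives and inflammation genes in both strains, 2 held an array far from the other 3, and chance alone gives about 1 in 20. Probe 1 of 1500011B03Rik had its highest B6 level, -1.74, in B6 015, while the other 3 B6 arrays lay between -1.87 and -1.85, so the distance is small against the strain difference of 4.30. Il1b had a level of -3.31 in NZO 011, below the -2.73 to -2.71 of the other NZO arrays.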

How the results depend on the processing

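The differences of the 9 probes were recomputed under 17 alternatives, and as the genes were chosen for this contrast and their strains did not overlap, only the sizes are given. Normexp correction gave -3.44 for Cib3, -4.90 and -4.57 for probes 1 and 2 of Gm7969, 3.17 and 0.62 for probes 1 and 2 of 1500011B03Rik, -1.27 for 1110019D14Rik and 0.95 for 1700001C19Rik. The deposited table gave -4.18 for Cib3, -5.27 for probe 2 of Gm7969, 3.45 and 0.72 for probes 1 and 2 of 1500011B03Rik, -2.16 for 1110019D14Rik, 0.82 for 1700001C19Rik and 0.80 for 1700028B04Rik. With the slide as a fixed block, which rests on the only slide that holds both strains, the values were -5.57 for Wfdc21, 4.02 for probe 1 of 1500011B03Rik, -5.49 for 1110019D14Rik, 1.38 for 1700001C19Rik and 1.22 for 1700028B04Rik.

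The mouse numbers 009 and 011 occur in both strains, but same-numbered mice did not deviate together (correlations of -0.26 and 0.01), so they share only a number. The replicate block, which then compares 2 pairs, gave -5.27 for probe 2 of Gm7969 and 0.98 for 1700001C19Rik, called 53 genes higher and 67 lower, and left 0 neighbours higher, 1 lower, 0 relatives lower and 0 inflammation genes lower. The slide as a fixed block called 358 higher and 590 lower, with 1 neighbour in each direction, 0 relatives lower and 0 inflammation genes lower. Normexp called 475 higher and 444 lower, the values of the deposited table gave 443 higher and 1058 lower, and the methods' t-test with adjusted p 637 higher, 638 lower and 0 inflammation genes. At the methods' own unadjusted threshold, tried after seeing the data, it called 959 higher and 1105 lower, and 5 inflammation genes lower. Without the filter on dim probes 1 inflammation gene was called. The relatives called lower were 1, Chp1, with normexp, quantile normalization, the deposited table, no filter, the random slide block, the scan day and the t-test, and the relatives called higher were 2 with the mean over probes or the smallest p. Cib4 reversed to 0.012 with normexp. The cause of these changes was not tested. Leaving out 1 array at a time gave 784 to 901 genes higher and 848 to 1017 lower, 2 neighbours in each direction, 1 relative higher and 1 to 2 lower, and 0 to 4 inflammation genes lower. Wfdc15b kept its call in all 20 refits. AA414992 did as well, but its p rests on background values in NZO, so nothing about stability is read from that. Levels near background limit Cib4, Itgax, Krt7, 1110019D14Rik, Prm1 and AA414992 to bounds or uncertain values. The sizes for Il1b, Wfdc15b, Guca1a and probe 2 of 1500011B03Rik depend on the background correction too, as they were smaller with normexp.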
